A study of Mus musculus with 12 samples.

Results

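The genes described here encode the activating chain that begins at the B cell receptor: the signal-transducing receptor subunits Cd79a and Cd79b, the coreceptor gene Cr2, the kinases Lyn, Blk, Syk and Btk, the adaptor Blnk and the phospholipase Plcg2. The list names genes by their role and uses no measured value as a criterion, though it was drawn up with earlier results of these data known, and it holds 9 of the 24346 gene symbols in the deposited tables. All 9 were present in every library and all 9 passed the filter on low values. Gene expression was measured by RNA sequencing in marginal zone B cells, which sit at the edge of the splenic follicles and answer blood-borne antigens quickly, from mice that lack the calcium-activated cation channel TRPM5 and from wild-type mice. Cells of each genotype spent 4 h with lipopolysaccharide (LPS) or an anti-IgM antibody, both at 10 µg/mL, or without stimulus. LPS is a bacterial product sensed by Toll-like receptors, whereas the antibody engages the B cell receptor directly by binding its IgM. The 6 groups were thus Trpm5-/- and wild-type cells with LPS, with anti-IgM and unstimulated, with 2 libraries in each. The labels do not say whether these 2 libraries came from separate animals or cultures, so the p-values measure only the spread between the libraries, which may be technical.

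As background, the B cell receptor is a membrane immunoglobulin held beside the Cd79a and Cd79b chains, whose cytoplasmic tyrosine motifs are phosphorylated by the Src-family kinases Lyn and Blk when antigen binds. Syk docks on these motifs and, together with Btk and the adaptor Blnk, activates Plcg2, which produces the messengers that release calcium and switch on protein kinase C. Cr2 (CD21) binds complement fragments on antigen and lowers the threshold of the receptor through its partners, among them Cd81, and it is abundant on the surface of marginal zone B cells.

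Trpm5 itself was close to 0 throughout. It read 0 and 0.0303 FPKM in Trpm5-/- cells with LPS, against 0.434 and 0.321 FPKM in wild-type cells with LPS. In the other 8 libraries it lay between 0 and 0.210 FPKM, and the genotypes overlapped without stimulus. With anti-IgM it read 0 in both Trpm5-/- libraries and 0.0590 and 0.0241 FPKM in the wild-type libraries. The anti-IgM values are too near 0 for a check, so Trpm5 checks the genotype labels under LPS only. Tssc4, up to 38.0 FPKM, overlaps Trpm5 on the other strand, and the libraries do not separate strands. Which exons the knockout lacks was not analysed here. Levels are FPKM, a fragment count scaled by transcript length and by a factor for each library. FPKM summed to between 563461 and 805373 per library, highest in the 4 LPS libraries. Relative to replicate 1 of the unstimulated wild-type cells, the scaling factor of a library lay between 0.645 and 1.061. It was read from genes with few fragments, and it equals relative depth only if the factor used was library size. All 9 B cell markers and all 9 marginal zone markers were detected, whereas 7 T cell markers stayed under 1 FPKM in every library. In bulk RNA, fewer cells that express a gene and less of its RNA per cell cannot be told apart.

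The genes lie on 9 different chromosomes (mm10, GENCODE M21). Cd79a spans chromosome 7, 24897381 to 24902197 on the plus strand, and Cd79b spans chromosome 11, 106311341 to 106314762 on the minus strand. Cr2 covers chromosome 1 from 195136811 to 195176716 on the minus strand. The kinase genes are at chromosome 4, 3678115 to 3813122, plus strand (Lyn), chromosome 14, 63372836 to 63417037, minus strand (Blk), chromosome 13, 52583173 to 52648792, plus strand (Syk) and chromosome X, 134542336 to 134583570, minus strand (Btk). Blnk is at chromosome 19, 40928927 to 40994535 on the minus strand, and Plcg2 at chromosome 8, 117498291 to 117635142 on the plus strand. The annotation places 4 other genes over Lyn, 1 over Btk and 1 over Plcg2, all of them pseudogenes or non-coding RNAs on the opposite strand, and the deposited tables list none of these.

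Promoter windows ran from 250 bases before to 50 bases after the start annotated in RefSeq (GRCm38.p6). This gave 7 windows for 6 of the 9 genes. Those printed here belong to genes that moved differently under the stimuli described below: Cd79a and Btk fell under both, Blnk hardly moved and Cr2 rose. Capitals mark the octamer (ATGCAAAT, the site read by the Oct factors of B cells, or ATTTGCAT when it lies on the other strand) and the PU box (GAGGAA, read by ETS factors such as PU.1, or TTCCTC on the other strand). Both strands were searched, and the motifs do not overlap each other here.
Cd79a, chr7:24897247-24897546, plus strand: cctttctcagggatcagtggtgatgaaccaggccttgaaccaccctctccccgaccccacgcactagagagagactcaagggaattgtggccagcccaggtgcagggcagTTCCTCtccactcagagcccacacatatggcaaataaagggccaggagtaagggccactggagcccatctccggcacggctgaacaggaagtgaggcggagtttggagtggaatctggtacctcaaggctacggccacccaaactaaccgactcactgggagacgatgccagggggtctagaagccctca
Btk, chrX:134583091-134583390, minus strand: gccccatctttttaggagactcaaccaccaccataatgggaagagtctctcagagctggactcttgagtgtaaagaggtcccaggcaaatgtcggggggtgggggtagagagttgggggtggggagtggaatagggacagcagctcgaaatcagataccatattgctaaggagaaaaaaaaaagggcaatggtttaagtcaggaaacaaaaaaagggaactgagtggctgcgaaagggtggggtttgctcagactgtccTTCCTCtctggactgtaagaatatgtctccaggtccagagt
Blnk, chr19:40994172-40994471, minus strand: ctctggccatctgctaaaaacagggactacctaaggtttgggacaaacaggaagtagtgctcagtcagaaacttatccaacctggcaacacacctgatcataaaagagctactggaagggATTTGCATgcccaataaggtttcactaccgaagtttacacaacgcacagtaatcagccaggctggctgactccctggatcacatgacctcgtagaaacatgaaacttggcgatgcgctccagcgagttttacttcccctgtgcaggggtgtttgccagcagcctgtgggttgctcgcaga
Cr2, chr1:195176670-195176969, minus strand: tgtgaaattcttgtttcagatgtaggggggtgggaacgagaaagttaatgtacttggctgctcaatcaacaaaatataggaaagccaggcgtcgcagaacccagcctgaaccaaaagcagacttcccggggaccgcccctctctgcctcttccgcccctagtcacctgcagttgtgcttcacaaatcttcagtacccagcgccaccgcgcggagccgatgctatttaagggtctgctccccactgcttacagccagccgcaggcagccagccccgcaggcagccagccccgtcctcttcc
Motif positions count from the RefSeq start. The Btk and Blnk windows lie wholly inside the GENCODE spans given above, in which these genes start further upstream. The Blnk window holds an octamer that begins at -130 from the start on the opposite strand. An octamer was found in 570 of 32851 promoter windows of this length (1.74%). Cd79a holds a PU box at -140 and Btk holds another at 10, both on the opposite strand, and 28.3% of all windows hold the motif. The Cr2 window has neither motif. The E box (CANNTG, read by E proteins) occurs in all 7 windows of the members and in 72.3% of all windows. A match is a string of letters and not a measured binding site, and no factor binding was measured in this series.

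Without stimulus the receptor subunits dominated the group. Over the 4 unstimulated libraries Cd79b averaged 1993 FPKM and Cd79a averaged 1917 FPKM, which are levels per transcript length. Cd79b exceeded Cd79a in 3 of these 4 libraries, so their order is not firm. Blnk followed with a mean of 200.0 FPKM, above Lyn in every unstimulated library. Lyn averaged 163 FPKM, Btk 147 FPKM, Blk 133 FPKM and Syk 108 FPKM, and only the steps down to Blk from Btk and to Btk from Lyn were broken, by 1 library each. Plcg2 averaged 71.7 FPKM, and Cr2 came last at 36.5 FPKM.

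Both receptor subunits fell under both stimuli. With LPS, Cd79a read 566 and 505 FPKM in Trpm5-/- cells and 653 and 673 FPKM in wild-type cells. After anti-IgM it read 544 and 528 FPKM in Trpm5-/- cells and 605 and 581 FPKM in wild-type cells. Unstimulated cells had 1784 and 1799 FPKM in the Trpm5-/- libraries and 2121 and 1965 FPKM in the wild-type libraries. All 8 stimulated libraries were far below all 4 unstimulated ones, and the LPS and anti-IgM libraries overlapped each other. Relative to unstimulated cells, Cd79a was 3.35-fold lower with LPS in Trpm5-/- cells (log2 difference -1.74 ± 0.06 SE, limma adjusted p = 4.83e-09) and 3.08-fold lower in wild-type cells (-1.62 ± 0.06, adjusted p = 6.68e-09). Anti-IgM lowered it 3.34-fold in Trpm5-/- cells (-1.74 ± 0.06, limma adjusted p = 5.13e-08) and 3.44-fold in wild-type cells (-1.78 ± 0.06, adjusted p = 3.66e-08). Folds are on the log2(FPKM + 1) scale.

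Cd79b kept more of its level under LPS than under anti-IgM. With LPS it stood at 877 and 814 FPKM in Trpm5-/- cells and at 1089 and 1129.6 FPKM in wild-type cells. Anti-IgM left 642 and 625 FPKM in Trpm5-/- cells and 708 and 725 FPKM in wild-type cells. Without stimulus the values were 1952 and 1975 FPKM in Trpm5-/- cells and 2064 and 1979.8 FPKM in wild-type cells. The 3 conditions did not overlap: unstimulated libraries were highest, LPS libraries intermediate and anti-IgM libraries lowest. The fall with LPS was 2.32-fold in Trpm5-/- cells (log2 difference -1.22 ± 0.05, limma adjusted p = 1.79e-08) and 1.82-fold in wild-type cells (-0.87 ± 0.05, adjusted p = 2.12e-07). With anti-IgM it was 3.10-fold in Trpm5-/- cells (-1.63 ± 0.05, limma adjusted p = 3.21e-08) and 2.82-fold in wild-type cells (-1.49 ± 0.05, adjusted p = 3.79e-08). Set directly against each other over both genotypes, LPS cells held 1.44-fold more Cd79b RNA than anti-IgM cells (0.52 ± 0.04, limma adjusted p = 9.59e-07; 0.19 under quantile normalization). For Cd79a the same comparison gave a log2 difference of 0.08 ± 0.05 (limma adjusted p = 0.158), and it turned to -0.29 under quantile normalization.

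Cr2 went the other way. It read 70.3 and 75.1 FPKM in Trpm5-/- cells and 86.4 and 87.4 FPKM in wild-type cells with LPS. Anti-IgM gave 51.6 and 52.5 FPKM in Trpm5-/- cells and 58.5 and 57.1 FPKM in wild-type cells. Unstimulated libraries held 35.1 and 39.6 FPKM in Trpm5-/- cells and 33.9 and 37.5 FPKM in wild-type cells. The order was therefore LPS, anti-IgM, unstimulated with no overlap between conditions, and the genotypes overlapped only without stimulus. LPS raised Cr2 1.93-fold in Trpm5-/- cells (log2 difference 0.95 ± 0.07, limma adjusted p = 1.05e-06) and 2.40-fold in wild-type cells (1.26 ± 0.07, adjusted p = 1.13e-07). Anti-IgM raised it 1.39-fold in Trpm5-/- cells (0.47 ± 0.07, limma adjusted p = 0.000399) and 1.60-fold in wild-type cells (0.68 ± 0.07, adjusted p = 2.99e-05). In the mouse, transcripts of Cr2 also encode the longer complement receptor CR1 through splicing, and values per gene symbol do not separate these forms.

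**Figure D1:**
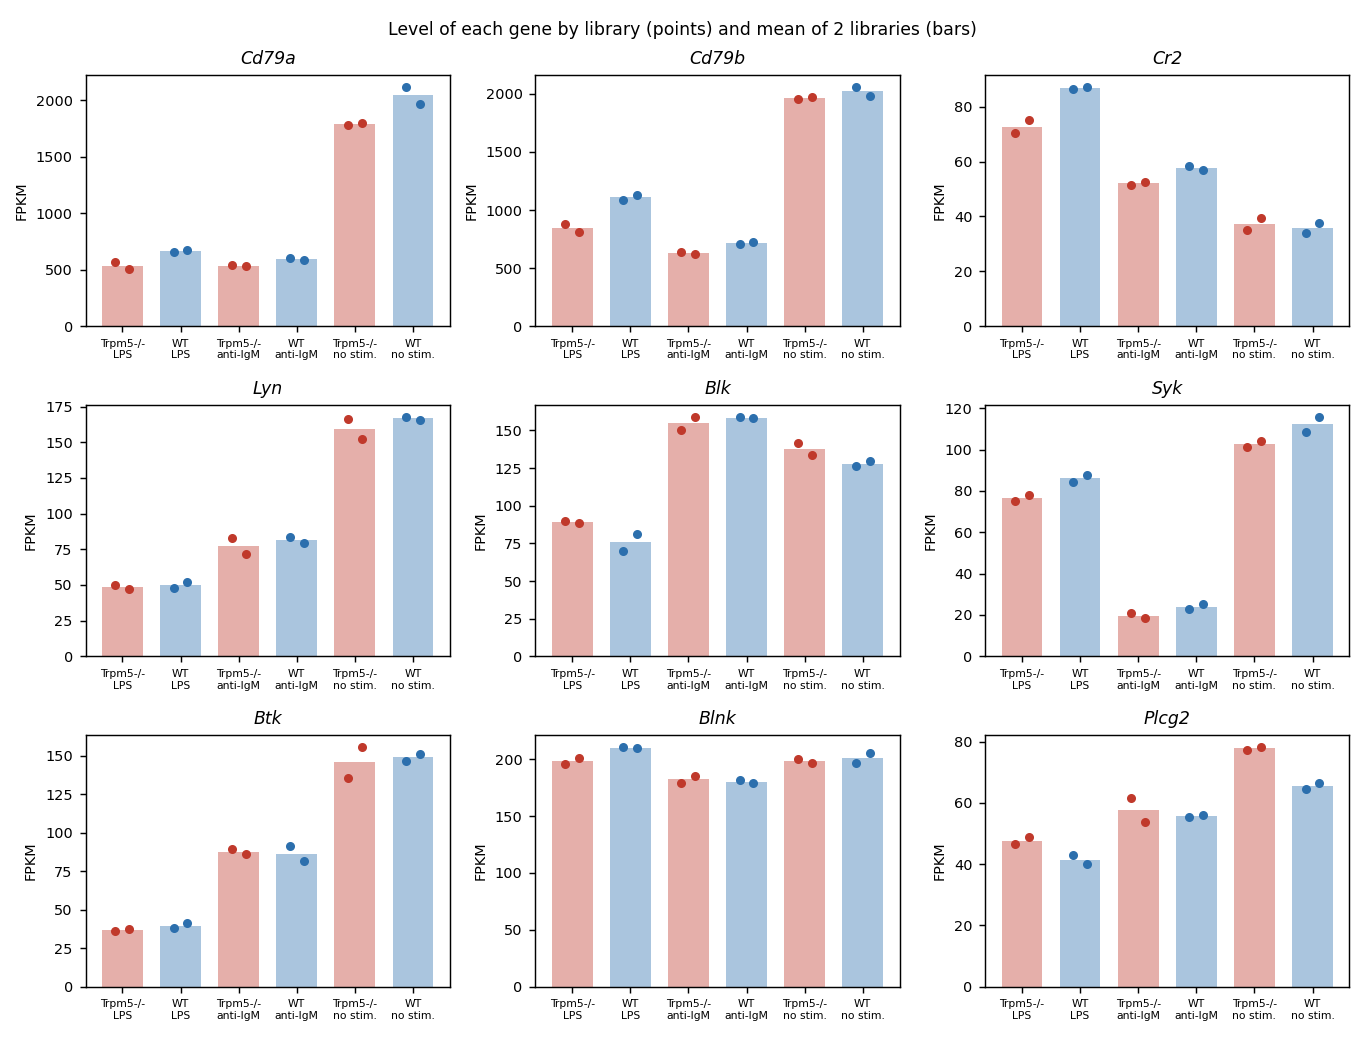
FPKM (vertical axes, linear, each gene on its own scale) of the 9 genes in the 6 groups along the horizontal axes; points are single libraries, bars are means of 2 libraries, red is Trpm5-/- and blue is wild type. Cd79a, Cd79b, Lyn and Btk stand highest without stimulus, Syk is lowest with anti-IgM at 18.5 to 25.4 FPKM, Cr2 is highest with LPS and Blnk stays between 179 and 211 FPKM.

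The Src-family kinases Lyn and Blk, which place the first phosphates on the receptor motifs, responded differently from each other. Lyn fell under both stimuli. Its LPS values were 50.1 and 47.2 FPKM in Trpm5-/- cells and 48.1 and 51.9 FPKM in wild-type cells. After anti-IgM they were 82.9 and 71.7 FPKM in Trpm5-/- cells and 83.9 and 79.4 FPKM in wild-type cells, and without stimulus 167 and 152 FPKM in Trpm5-/- cells and 168 and 166 FPKM in wild-type cells. The conditions did not overlap, and the genotypes overlapped in each. With LPS Lyn was 3.23-fold lower in Trpm5-/- cells (log2 difference -1.69 ± 0.08, limma adjusted p = 2.23e-08) and 3.29-fold lower in wild-type cells (-1.72 ± 0.08, adjusted p = 1.89e-08). With anti-IgM it was 2.05-fold lower in Trpm5-/- cells (-1.04 ± 0.08, limma adjusted p = 2.47e-06) and 2.03-fold lower in wild-type cells (-1.02 ± 0.08, adjusted p = 2.56e-06).

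Blk, a Src-family kinase largely restricted to B cells, fell with LPS and not with anti-IgM. It read 89.6 and 88.7 FPKM in Trpm5-/- cells and 69.7 and 81.5 FPKM in wild-type cells with LPS. The anti-IgM libraries held 150.5 and 159 FPKM in Trpm5-/- cells and 159 and 158 FPKM in wild-type cells. In unstimulated libraries Blk stood at 142 and 134 FPKM in Trpm5-/- cells and at 126 and 129 FPKM in wild-type cells. All LPS libraries were below, and all anti-IgM libraries above, the unstimulated ones. The fall with LPS was 1.54-fold in Trpm5-/- cells (log2 difference -0.62 ± 0.07, limma adjusted p = 2.08e-05) and 1.69-fold in wild-type cells (-0.75 ± 0.07, adjusted p = 4.56e-06). Quantile normalization made it larger, at -1.08 in Trpm5-/- cells and -1.22 in wild-type cells. With anti-IgM the log2 difference was 0.17 ± 0.07 in Trpm5-/- cells, not past the threshold (limma adjusted p = 0.077) and turned to -0.07 under quantile normalization. In wild-type cells it was 0.31 ± 0.07 (limma adjusted p = 0.00474), and quantile normalization took it to 0.08 (adjusted p = 0.348). The comparison of LPS with anti-IgM put Blk 1.90-fold lower with LPS over both genotypes (-0.93 ± 0.05, limma adjusted p = 9.59e-08).

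Syk and Btk, the kinases that act after the Src family, exchanged places between the stimuli. Syk read 75.0 and 78.1 FPKM in Trpm5-/- cells and 84.5 and 87.8 FPKM in wild-type cells with LPS. Anti-IgM left 21.0 and 18.5 FPKM in Trpm5-/- cells and 22.8 and 25.4 FPKM in wild-type cells, and unstimulated libraries had 101 and 104 FPKM in Trpm5-/- cells and 109 and 116 FPKM in wild-type cells. The 4 anti-IgM libraries thus lay far below the other 8, and the LPS libraries lay just under the unstimulated ones. Anti-IgM lowered Syk 5.02-fold in Trpm5-/- cells (log2 difference -2.33 ± 0.08, limma adjusted p = 2.66e-08) and 4.52-fold in wild-type cells (-2.18 ± 0.08, adjusted p = 3.66e-08). LPS lowered it only 1.34-fold in Trpm5-/- cells (-0.42 ± 0.08, limma adjusted p = 0.000623) and 1.30-fold in wild-type cells (-0.38 ± 0.08, adjusted p = 0.00123). After quantile normalization the LPS differences were -0.86 in Trpm5-/- cells and -0.84 in wild-type cells, still far from those of anti-IgM. Directly compared, Syk was 3.61-fold higher with LPS than with anti-IgM (1.85 ± 0.05, limma adjusted p = 9.85e-10).

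Btk, the Tec-family kinase whose loss causes X-linked immunodeficiency in mice, read 35.9 and 37.5 FPKM in Trpm5-/- cells and 37.9 and 41.3 FPKM in wild-type cells with LPS. With anti-IgM it read 89.5 and 85.8 FPKM in Trpm5-/- cells and 91.2 and 81.3 FPKM in wild-type cells, and without stimulus 136 and 156 FPKM in Trpm5-/- cells and 147 and 151 FPKM in wild-type cells. Here the LPS libraries were lowest and the anti-IgM libraries intermediate, with no overlap between conditions. LPS lowered Btk 3.88-fold in Trpm5-/- cells (log2 difference -1.96 ± 0.08, limma adjusted p = 9.91e-09) and 3.70-fold in wild-type cells (-1.89 ± 0.08, adjusted p = 1.20e-08). Anti-IgM lowered it 1.65-fold in Trpm5-/- cells (-0.72 ± 0.08, limma adjusted p = 3.97e-05) and 1.72-fold in wild-type cells (-0.78 ± 0.08, adjusted p = 2.15e-05). Btk was 2.25-fold lower with LPS than with anti-IgM (-1.17 ± 0.06, limma adjusted p = 4.73e-08).

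The adaptor Blnk, which brings Btk and Plcg2 to Syk, moved least. Its 12 values ran from 179 to 211 FPKM, a 1.18-fold range, whereas the range was 6.28-fold for Syk. With LPS it stood at 196 and 201 FPKM in Trpm5-/- cells and at 211 and 209.7 FPKM in wild-type cells. Anti-IgM libraries had 179 and 186 FPKM in Trpm5-/- cells and 182 and 179 FPKM in wild-type cells, and unstimulated ones 200.0 and 197 FPKM in Trpm5-/- cells and 197 and 206 FPKM in wild-type cells. The anti-IgM values were the lowest of the 3 conditions, and LPS and unstimulated values overlapped. No difference with LPS passed the threshold in Trpm5-/- cells (95% interval of the log2 difference -0.10 to 0.10, limma adjusted p = 0.990) or in wild-type cells (-0.04 to 0.17, adjusted p = 0.253). Under quantile normalization these became -0.54 and -0.52, both past the threshold. With anti-IgM Blnk differed by -0.12 ± 0.05 in Trpm5-/- cells (limma adjusted p = 0.0516), which passed without the filter (0.0369), with median-of-ratios scaling (0.0457) and with quantile normalization (-0.35, adjusted p = 0.000347). It fell by 0.16 ± 0.05 on the log2 scale in wild-type cells (adjusted p = 0.0165). That call was lost without wild-type unstimulated replicate 2, wild-type anti-IgM replicate 1 or wild-type anti-IgM replicate 2 (adjusted p 0.0514 to 0.0957), without the variance trend (0.0684) and with only the compared libraries (0.0688), while quantile normalization took it to -0.36.

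Plcg2, the enzyme that turns the assembled complex into second messengers, fell moderately. With LPS it read 46.5 and 48.7 FPKM in Trpm5-/- cells and 42.9 and 40.1 FPKM in wild-type cells. After anti-IgM the values were 61.7 and 53.9 FPKM in Trpm5-/- cells and 55.3 and 56.1 FPKM in wild-type cells, and without stimulus 77.4 and 78.3 FPKM in Trpm5-/- cells and 64.4 and 66.5 FPKM in wild-type cells. LPS libraries were lowest, unstimulated libraries highest, and no condition overlapped another. LPS lowered it 1.62-fold in Trpm5-/- cells (log2 difference -0.70 ± 0.07, limma adjusted p = 8.44e-06) and 1.57-fold in wild-type cells (-0.65 ± 0.07, adjusted p = 1.48e-05). Anti-IgM lowered it 1.34-fold in Trpm5-/- cells (-0.43 ± 0.07, limma adjusted p = 0.000615) and 1.17-fold in wild-type cells (-0.23 ± 0.07, adjusted p = 0.022). The wild-type anti-IgM call was lost when any of the 4 libraries compared was left out, with adjusted p of 0.0508 to 0.0992, and quantile normalization took it to -0.41.

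Counted over the 9 genes, LPS lowered 7 and raised 1 in Trpm5-/- cells, where 68.7% of all 10797 genes tested were called (34.8% higher, 33.8% lower). In wild-type cells LPS also lowered 7 and raised 1, against 69.4% of all genes called (35.0% higher, 34.4% lower). Anti-IgM lowered 6 and raised 1 in Trpm5-/- cells (49.9% of all genes called, 26.9% higher and 23.0% lower). It lowered 7 and raised 2 in wild-type cells (48.6% called, 27.7% higher and 20.9% lower). The median log2 difference of the 9 genes was -0.70 with LPS and -0.72 with anti-IgM in Trpm5-/- cells, and -0.75 and -0.78 in wild-type cells. Over all genes tested these medians lay between -0.02 and 0.02. The comparisons of the stimuli with unstimulated cells share the unstimulated libraries.

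**Figure D2:**
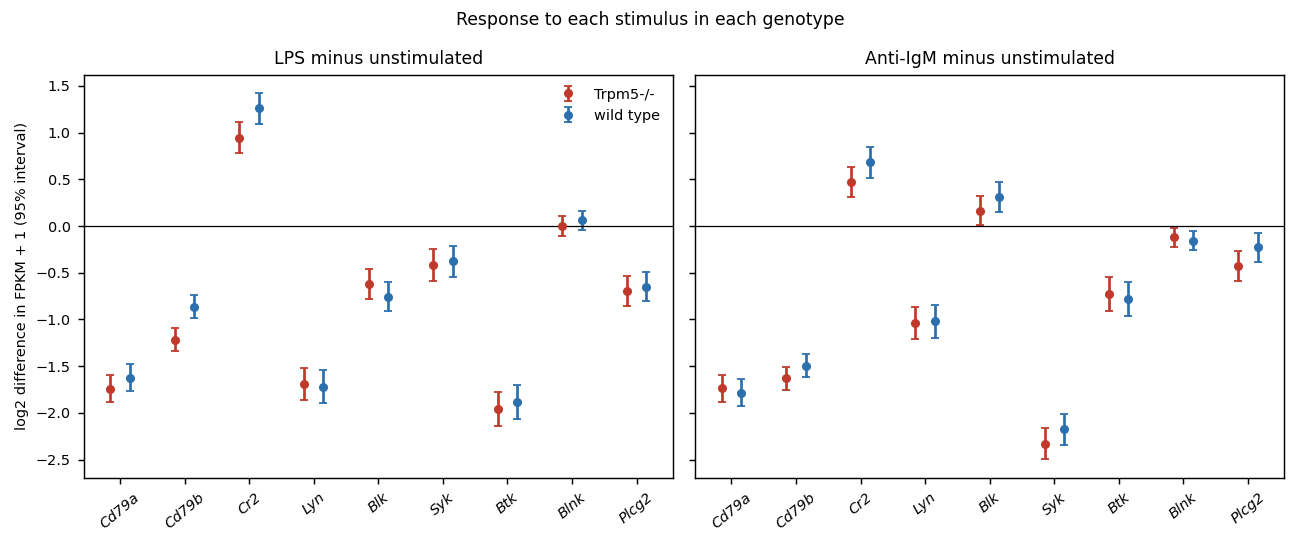
Log2 difference in FPKM + 1 from unstimulated cells (vertical axis, 95% intervals from limma) for the 9 genes with LPS (left) and anti-IgM (right), red for Trpm5-/- and blue for wild type. Syk lies at -0.42 and -0.38 with LPS and at -2.33 and -2.18 with anti-IgM, Btk shows the reverse order, and Cr2 is above 0 in every panel.

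The comparison of the stimuli with each other split the group. Over both genotypes, 4 genes were higher with LPS than with anti-IgM (Cd79b, Cr2, Syk and Blnk) and 4 were lower (Lyn, Blk, Btk and Plcg2), where 64.0% of all genes were called (33.5% higher, 30.5% lower). Lyn was 1.60-fold lower (log2 difference -0.68 ± 0.06, limma adjusted p = 2.12e-06) and Plcg2 was 1.27-fold lower (-0.34 ± 0.05, adjusted p = 0.00015). Cr2 was 1.44-fold higher (0.53 ± 0.05, limma adjusted p = 8.27e-06; 0.34 under quantile normalization). Blnk was 1.13-fold higher (0.17 ± 0.03, limma adjusted p = 0.00103), but quantile normalization reversed it to -0.17 (adjusted p = 0.0026). Cd79a was not called here, but it was called lower under quantile normalization (-0.29, limma adjusted p = 1.11e-05) and higher without Trpm5-/- LPS replicate 2 (0.12, adjusted p = 0.0304). The split was then 3 higher and 6 lower under quantile normalization.

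Ratios of 2 genes within a library do not depend on the scaling between libraries, and they show the same shifts as values (pairs chosen after the values were seen, given without a test). The Cd79a to Cd79b ratio was 0.645 and 0.621 in Trpm5-/- cells and 0.600 and 0.596 in wild-type cells with LPS. It was 0.848 and 0.845 in Trpm5-/- cells and 0.855 and 0.801 in wild-type cells with anti-IgM, and 0.914 and 0.911 in Trpm5-/- cells and 1.03 and 0.993 in wild-type cells without stimulus. The 2 subunits were thus nearest to parity in unstimulated cells, and there nearer in wild-type than in Trpm5-/- cells. Blk stood below Lyn in every unstimulated library, at 0.752 to 0.879 times its FPKM, and above it in every stimulated one, at 1.45 to 1.88 times with LPS and 1.81 to 2.22 times with anti-IgM. Syk over Btk moved furthest, at 2.08 to 2.23 with LPS, 0.215 to 0.313 with anti-IgM and 0.668 to 0.767 without stimulus. Among the kinases Lyn ranked first without stimulus by mean FPKM. Blk and Syk ranked first with LPS, each above the other in 2 of 4 libraries, and Blk ranked first and Syk last in all 4 anti-IgM libraries.

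**Figure D3:**
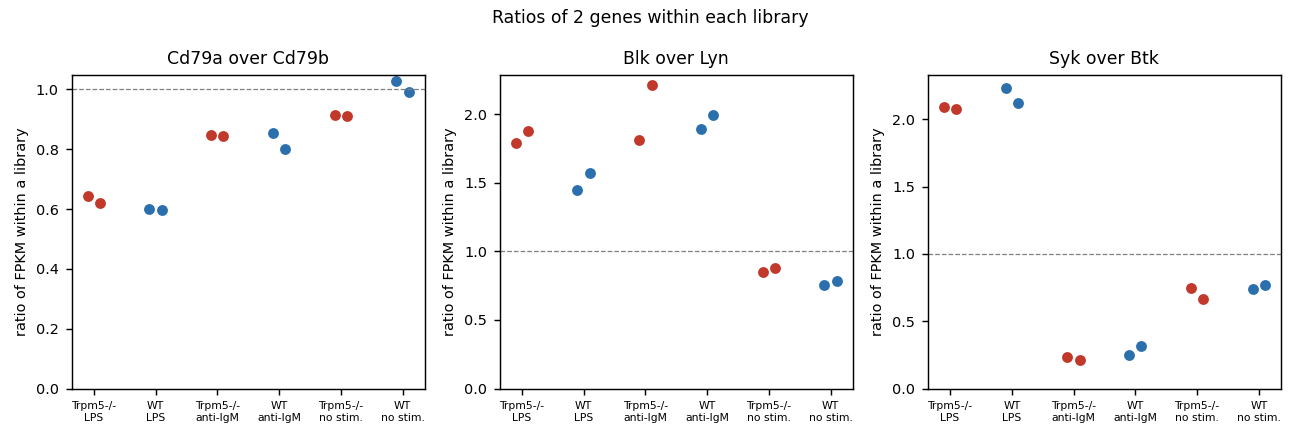
Ratio of the FPKM of 2 genes within each library (vertical axes, linear from 0) for Cd79a over Cd79b, Blk over Lyn and Syk over Btk; points are single libraries, red Trpm5-/- and blue wild type, and the dashed line marks 1. Blk over Lyn is under 1 in the unstimulated libraries and over 1 in all others, and Syk over Btk spans 0.215 to 2.23.

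Loss of TRPM5 went with lower RNA of both receptor subunits under LPS and with no called change of the other 7 genes in any single condition. Under LPS, Cd79a averaged 536 ± 42.5 FPKM in Trpm5-/- cells and 663 ± 14.0 FPKM in wild-type cells (SD, n = 2 each), and Cd79b averaged 846 ± 44.7 FPKM in Trpm5-/- cells and 1109 ± 28.6 FPKM in wild-type cells. Both Trpm5-/- libraries were below both wild-type libraries for Cd79a and for Cd79b. Cd79a was 1.24-fold lower (log2 difference -0.31 ± 0.06, limma adjusted p = 0.0276) and Cd79b was 1.31-fold lower (-0.39 ± 0.05, adjusted p = 0.00368). These were 2 of 9 genes called, where 3.59% of all genes were called (1.82% higher, 1.78% lower). The Cd79a call was lost without Trpm5-/- LPS replicate 2 (limma adjusted p = 0.122), without wild-type LPS replicate 1 (0.107) or without wild-type LPS replicate 2 (0.161), and also without the filter (0.0579) or the variance trend (0.0896). When only the 4 LPS libraries were fitted, neither gene passed (Cd79a adjusted p = 0.223, Cd79b adjusted p = 0.148).

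Other genes leaned under LPS without passing the threshold. Cr2 was at 72.7 ± 3.41 FPKM in Trpm5-/- cells and 86.9 ± 0.68 FPKM in wild-type cells, a log2 difference of -0.26 ± 0.07 (limma adjusted p = 0.098). Blk was at 89.2 ± 0.61 FPKM in Trpm5-/- cells and 75.6 ± 8.37 FPKM in wild-type cells (0.24 ± 0.07, adjusted p = 0.106). It passed when wild-type LPS replicate 2 was left out (0.35, limma adjusted p = 0.0419). Plcg2 had a log2 difference of 0.20 ± 0.07 (limma adjusted p = 0.184) and Syk one of -0.17 ± 0.08 (adjusted p = 0.307). With LPS 5 of the 9 genes had an unadjusted limma p under 0.05, Cd79a and Cd79b among them. So had 1801 of all 10797 genes tested. The intervals (95%) of the log2 difference ran from -0.21 to 0.14 for Lyn, from -0.29 to 0.08 for Btk and from -0.19 to 0.02 for Blnk.

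With anti-IgM and without stimulus 0 of the 9 genes differed between genotypes by limma, where 3.83% (1.91% higher, 1.92% lower) and 6.11% (4.45% higher, 1.66% lower) of all genes were called. At an unadjusted limma p under 0.05 the counts were 3 of 9 with anti-IgM and 2 of 9 without stimulus. Of all 10797 genes tested, 2116 and 2226 had such a p, so these counts are near the share over all genes. Syk with anti-IgM came nearest, at 19.7 ± 1.77 FPKM in Trpm5-/- cells and 24.1 ± 1.86 FPKM in wild-type cells (log2 difference -0.28 ± 0.08, limma adjusted p = 0.078). Without stimulus it was Plcg2, at 77.8 ± 0.61 FPKM in Trpm5-/- cells and 65.5 ± 1.48 FPKM in wild-type cells (0.25 ± 0.07, adjusted p = 0.0748). In both cases the libraries of the genotypes did not overlap. Cd79a and Cd79b with anti-IgM were at -0.14 ± 0.06 and -0.18 ± 0.05, and under quantile normalization both were called lower (-0.34, limma adjusted p = 0.00162, and -0.30, adjusted p = 0.0184).

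Averaged over the 3 conditions, Trpm5-/- cells had less Cd79a (log2 difference -0.21 ± 0.04, limma adjusted p = 0.00371), less Cd79b (-0.20 ± 0.03, adjusted p = 0.00208) and less Syk (-0.19 ± 0.04, adjusted p = 0.0154). Plcg2 was higher (0.16 ± 0.04, limma adjusted p = 0.0227). The Cd79a, Cd79b and Syk means of Trpm5-/- cells were below those of wild-type cells in all 3 conditions, and the Plcg2 means were above them. Cd79b differed little without stimulus, though (log2 difference -0.04, 95% interval -0.16 to 0.08, limma adjusted p = 0.738). In the averaged comparison 4 of 9 genes were thus called, where 16.0% of all genes were called (10.2% higher, 5.88% lower). The Plcg2 call was lost under 9 of the 19 alternatives, with adjusted p up to 0.0794, among them leaving out Trpm5-/- unstimulated replicate 2, wild-type unstimulated replicate 1, Trpm5-/- LPS replicate 2, wild-type LPS replicate 2, Trpm5-/- anti-IgM replicate 1 or either wild-type anti-IgM library. The other 5 genes were not called. Cr2 was at -0.11 (95% interval -0.21 to -0.02, limma adjusted p = 0.101) and passed under quantile normalization (adjusted p = 0.0467), and Blk was at 0.10 (0.01 to 0.20, adjusted p = 0.119) and passed without wild-type LPS replicate 2 (0.0254). The intervals were -0.16 to 0.04 for Lyn, -0.14 to 0.07 for Btk and -0.09 to 0.03 for Blnk, which stood at -0.10 under quantile normalization.

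**Figure D4:**
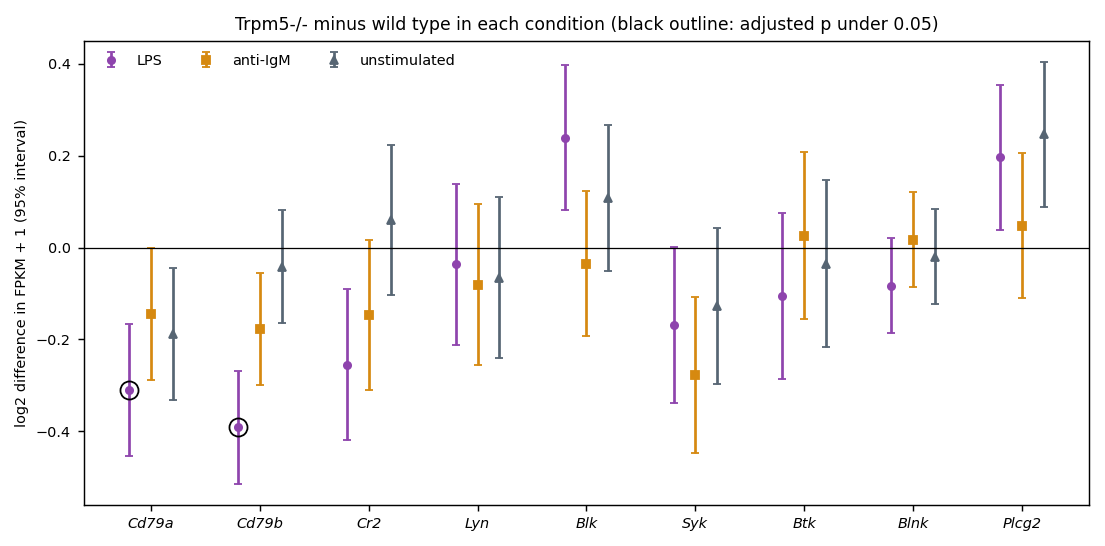
Log2 difference in FPKM + 1, Trpm5-/- minus wild type, for the 9 genes with LPS (circles), anti-IgM (squares) and without stimulus (triangles), with 95% intervals from limma; a black outline marks an adjusted p under 0.05. Only Cd79a (-0.31) and Cd79b (-0.39) with LPS are outlined.

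Whether the genotypes answered the stimuli differently was tested as an interaction. For LPS, 0 of the 9 genes passed by limma (0.102% of all genes called, 0.0648% higher and 0.0370% lower). An unadjusted p under 0.05 was found for 2 of the 9 and for 1113 of all 10797 genes tested. The 2 were Cd79b (-0.35 ± 0.08, limma adjusted p = 0.182) and Cr2 (-0.32 ± 0.10, adjusted p = 0.347). The fall of Cd79b and the rise of Cr2 with LPS are thus not shown to differ between genotypes. For anti-IgM, 0 of the 9 genes passed (0.0278% of all genes called, 0.00926% higher and 0.0185% lower). An unadjusted p under 0.05 was found for 0 of the 9 and for 857 of all genes tested. Such interactions carry the errors of 4 groups: their standard errors were 0.07 to 0.11 for the 9 genes.

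Markers of other cell states moved with genotype too. The summed FPKM of 9 marginal zone markers was higher in Trpm5-/- cells in each condition. With LPS it was 726 to 769 in Trpm5-/- cells and 493 to 511 in wild-type cells, with anti-IgM 880.3 to 906 in Trpm5-/- cells and 674 in both wild-type libraries, and without stimulus 1273 to 1282 in Trpm5-/- cells and 937 to 966 in wild-type cells. The sums thus do not overlap between genotypes, but a large share of the difference was Cd9, which averaged 439 FPKM in Trpm5-/- cells and 246 FPKM in wild-type cells with LPS. Notch2 went the other way in each condition (with anti-IgM 6.37 FPKM in Trpm5-/- cells and 8.21 FPKM in wild-type cells), as did Mzb1 with LPS (138 FPKM in Trpm5-/- cells and 145 FPKM in wild-type cells). Cd1d1 was also lower in Trpm5-/- cells with anti-IgM (2.79 against 4.31 FPKM in wild-type cells) and without stimulus (14.1 against 14.8 FPKM). The sum of 9 B cell markers was lower in Trpm5-/- cells, at 8370.0 to 8627 with LPS, against 10779.5 to 11277 in wild-type cells with LPS. Most of that sum and of its difference was Cd74, at 6801 FPKM in Trpm5-/- cells and 9056 FPKM in wild-type cells, whereas Ebf1 was at 50.1 FPKM in Trpm5-/- cells and 46.8 FPKM in wild-type cells. The 7 follicular markers summed lower in Trpm5-/- cells in each condition. With LPS the sums were 2924 to 2971 in Trpm5-/- cells and 3345 to 3485 in wild-type cells. Most of that LPS difference was Fcer2a, at 557 FPKM in Trpm5-/- cells and 930 FPKM in wild-type cells. Cxcr5 was higher in Trpm5-/- cells in each condition (without stimulus 154.9 FPKM, against 144.0 FPKM in wild-type cells). Ccr7 and Klf2 were slightly higher in Trpm5-/- cells with LPS only. The 5 plasma cell markers summed higher in Trpm5-/- cells in each condition, with LPS at 329 to 332 in Trpm5-/- cells and 280.1 to 301 in wild-type cells. Most of that LPS sum was Irf4, at 238 FPKM in Trpm5-/- cells and 215 FPKM in wild-type cells. Sdc1 was lower in Trpm5-/- cells in each condition (with LPS 1.36 FPKM, against 1.64 FPKM in wild-type cells). The 6 erythroid markers in the tables summed to 275 in both Trpm5-/- LPS libraries and to 452 to 537 in the wild-type LPS libraries. The sums of 7 T cell markers stayed at or under 1.79 FPKM and those of 5 natural killer cell markers at or under 1.95 FPKM. Of 10 macrophage and monocyte markers, 6 reached 1 FPKM in some library, led by Lyz2 (up to 13.5 FPKM) and Cd68 (up to 11.9 FPKM), while Csf1r, Cd14, Fcgr1 and Marco stayed under 1 FPKM, and the list summed to 18.5 to 37.9 FPKM. The part of these marker differences in the lower Cd79a and Cd79b values was not tested.

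The rest of the pathway was read from 52 further listed genes. Of these, 49 were tested. In wild-type cells LPS lowered 31 of them and raised 9 (median log2 difference -0.78), and anti-IgM lowered 21 and raised 13 (median -0.17). Between genotypes 7 were lower and 0 higher in Trpm5-/- cells with LPS, 8 lower and 0 higher with anti-IgM, and 3 lower and 2 higher without stimulus. With only the compared libraries in the fit, all 7 LPS calls, 6 of the 8 anti-IgM calls and all 5 calls without stimulus were lost. The shares called among all genes are those given above for each comparison.

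Cr2 works beside Cd81. Cd81, the tetraspanin of the coreceptor complex, was higher with LPS than without stimulus in wild-type cells (log2 difference 0.50 ± 0.07, limma adjusted p = 9.91e-05), though at -0.07 under quantile normalization, and lower with anti-IgM (-0.47 ± 0.07, adjusted p = 0.000313). Between genotypes Cd81 was lower in Trpm5-/- cells, at 244 ± 7.52 FPKM, than in wild-type cells, at 353 ± 16.8 FPKM (SD, n = 2 each), with LPS (-0.53 ± 0.07, limma adjusted p = 0.00279; 0.075 with only the compared libraries). It was lower with anti-IgM as well (-0.33 ± 0.07, limma adjusted p = 0.0305). This anti-IgM call was lost without either Trpm5-/- library or without wild-type replicate 1 (0.128 to 0.166), without the filter (0.0612), without the variance trend (0.0925) and with only the compared libraries (0.130).

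Of 8 further kinases tested, wild-type cells with anti-IgM raised 2 and lowered 1, where 48.6% of all genes were called. With LPS they raised 1 and lowered 5, where 69.4% of all genes were called. Fyn, a broadly expressed relative of Lyn, averaged 196 ± 11.2 FPKM with anti-IgM and 69.0 ± 1.35 FPKM without stimulus (log2 difference 1.49 ± 0.07, limma adjusted p = 1.12e-07). Lck, best known as the Src-family kinase of T cells, averaged 64.5 ± 2.42 FPKM with anti-IgM and 24.1 ± 0.97 FPKM without stimulus (1.39 ± 0.08, adjusted p = 3.02e-07), while the listed T cell markers stayed under 1 FPKM. Tec, the relative of Btk, fell with LPS to 33.1 ± 0.02 FPKM, against 85.6 ± 5.78 FPKM without stimulus (-1.34 ± 0.07, limma adjusted p = 3.35e-08).

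Among 15 adaptor and PI3K genes LPS lowered 9 and raised 3 in wild-type cells, and anti-IgM lowered 5 and raised 5. Of all genes, 69.4% were called with LPS and 48.6% with anti-IgM. Pik3ap1 (BCAP, which couples the receptor to PI3K) was at 132 ± 2.31 FPKM with anti-IgM and 48.4 ± 0.85 FPKM without stimulus (log2 difference 1.43 ± 0.06, limma adjusted p = 6.54e-08). Bank1, a B cell scaffold that binds Lyn, was at 31.6 ± 1.84 FPKM with anti-IgM and 147 ± 1.06 FPKM without stimulus (-2.18 ± 0.09, limma adjusted p = 6.58e-08). Dapp1, an adaptor that binds PI3K products, fell by 2.21 ± 0.12 with LPS on the log2 scale (limma adjusted p = 4.99e-08). In the arm after Plcg2, LPS lowered 7 of 10 genes and raised 1, and anti-IgM lowered 5 and raised 2, in wild-type cells. The same shares of all genes apply. Rasgrp3, a diacylglycerol-driven activator of Ras, fell with LPS (-1.53 ± 0.09, limma adjusted p = 1.29e-07) and anti-IgM (-1.54 ± 0.09, adjusted p = 3.88e-07).

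The inhibitory partners of the receptor mostly fell as well. In wild-type cells LPS lowered 9 of 13 and raised 2 (median log2 difference -1.87), and anti-IgM lowered 7 and raised 4 (median -0.70). Of all genes, 34.4% were called lower and 35.0% higher with LPS, and 20.9% lower and 27.7% higher with anti-IgM. Dok3, an adaptor that restrains calcium signalling after the receptor, dropped under LPS to 6.76 ± 0.21 FPKM in Trpm5-/- cells and 6.26 ± 0.56 FPKM in wild-type cells, against 91.8 ± 4.05 and 98.5 ± 3.02 FPKM in unstimulated Trpm5-/- and wild-type cells (wild type -3.78 ± 0.07, limma adjusted p = 2.09e-10). Siglecg (-2.64 ± 0.14, limma adjusted p = 2.16e-07) and Cd22 (-2.00 ± 0.10, adjusted p = 1.30e-07), sialic acid binding receptors that recruit phosphatases, fell with anti-IgM. Cd72, another inhibitory receptor, rose with LPS (0.93 ± 0.05, limma adjusted p = 1.06e-07; 0.38 under quantile normalization) and anti-IgM (1.01 ± 0.05, adjusted p = 2.03e-07). Between genotypes, Ptpn6 (SHP-1, the phosphatase these receptors recruit) was lower in Trpm5-/- cells with anti-IgM, at 211 ± 3.85 FPKM against 289.96 ± 5.84 FPKM in wild-type cells (-0.46 ± 0.05, limma adjusted p = 0.00131). Cd22 was lower in Trpm5-/- cells with LPS (-0.49 ± 0.10, limma adjusted p = 0.0244), a call lost without Trpm5-/- LPS replicate 1, Trpm5-/- LPS replicate 2 or wild-type LPS replicate 2 (0.0575 to 0.146).

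**Figure D5:**
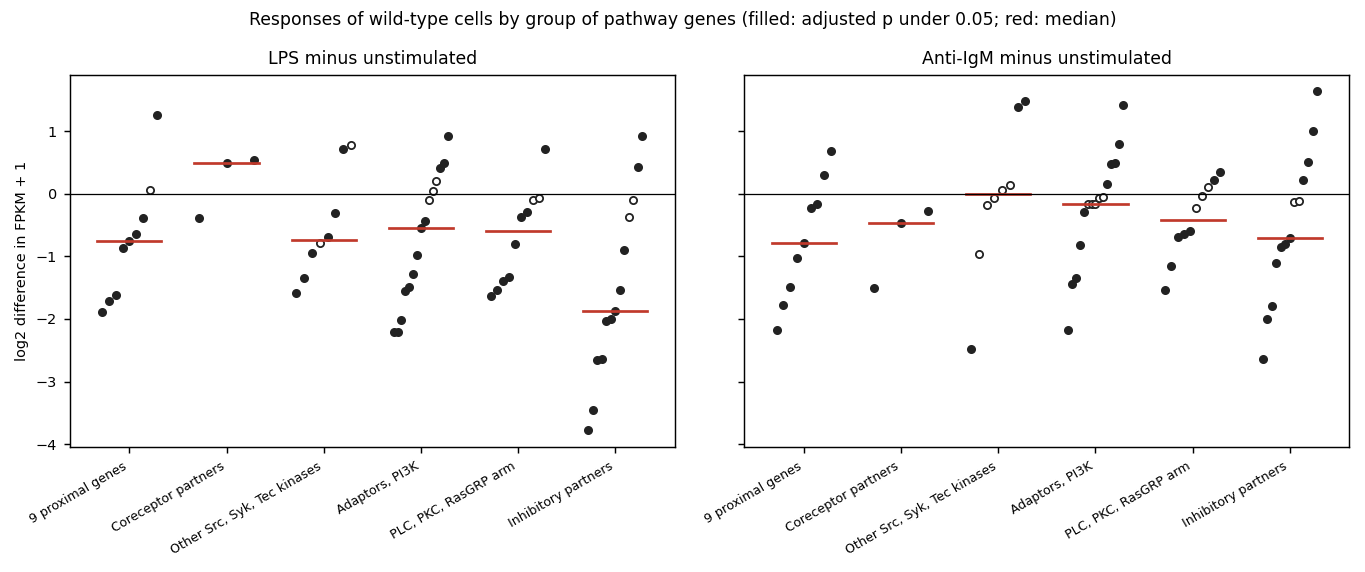
Log2 difference in FPKM + 1 from unstimulated cells in wild-type cells (vertical axis) for the 9 proximal genes and 5 groups of other pathway genes, with LPS (left) and anti-IgM (right); points are genes, filled where the limma adjusted p was under 0.05, and red lines are group medians. The median of the inhibitory partners is -1.87 with LPS, and that of the 9 proximal genes is -0.75 with LPS and -0.78 with anti-IgM.

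The genes most like the receptor genes over the 12 libraries were found among 7870 genes with a mean of at least 5 FPKM, by Pearson r of log2(FPKM + 1). These r values are descriptions over 12 libraries that fall into 3 conditions, so any gene with the same order of conditions scores high. Nearest to Cd79a was Cd55 (r = 0.9972), a complement regulator, which averaged 22.0 FPKM in Trpm5-/- and 29.3 FPKM in wild-type cells with LPS, against 146 and 178 FPKM in the same genotypes without stimulus. Crip1 (r = 0.9959), a LIM-domain protein, and Acap1 (r = 0.9926), a GTPase-activating protein for Arf6, came next. Cd79b was most like Unc93b1 (r = 0.9932), the chaperone of endosomal Toll-like receptors, Il16 (r = 0.9918), a cytokine precursor, and Bank1 (r = 0.9903). Cr2 ran closest to Lars (r = 0.9946), the leucyl-tRNA synthetase, which averaged 144 FPKM in Trpm5-/- and 166 FPKM in wild-type cells with LPS, and 65.9 and 64.3 FPKM without stimulus. Pus7l (r = 0.9855) and Eif1ad (r = 0.9852) followed.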

How the data were processed

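RNA was measured in 12 libraries of mouse marginal zone B cells. Per the labels' protocols, total RNA gave full-length cDNA (SMART-Seq HT) and Nextera libraries, which do not mark strand. Per the submitters' processing notes, TopHat2 2.0.13, Bowtie2 2.2.3, SAMtools 0.1.19, Cufflinks 2.2.1 and mm10 were used. The annotation used is not given in the sources at hand. The deposited values, 1 per symbol and library, were taken as FPKM made by the authors with Cufflinks: the tables do not name the unit. Median ratios of 1.0082 to 1.0148 to the geometric mean show that they had been scaled between libraries, and 0 library pairs were identical. Only a relative scaling factor could be read from the values and depth itself is not known, so no counting interval is given.

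Values were analysed as log2(FPKM + 1), which understates changes of low genes, for the 10797 genes that reached 1 FPKM in 2 or more libraries. A mean per group was fitted to all 12 libraries with limma 3.58.1 (R 4.3.3; trended eBayes; residual degrees of freedom 6; tested on simulated data), and 11 contrasts were drawn. Each contrast was tested 2-sided, with Benjamini-Hochberg adjustment over all genes tested and calls made at an adjusted p under 0.05. Errors are standard errors of log2 differences or SDs of 2 libraries. Alternatives were a pseudocount of 0.1, no filter, a mean of at least 5 FPKM, median-of-ratios scaling, quantile normalization, the replicate number as a block, eBayes without a trend, only the compared libraries, and each library left out.

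The 9 members, the pathway and marker lists and the rules were chosen with earlier results of these data known. Named were all 9 members, Trpm5, up to 3 called genes per direction with the largest difference from each pathway list (some of them not reported here), and the 3 genes most like Cd79a, Cd79b and Cr2. Positions are from GENCODE M21, promoters from RefSeq (GRCm38.p6).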

Additional observations from a re-analysis of the deposited data

How the results depend on the processing

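Of 99 results on the 9 genes, 46 were called, and 39 of these stayed called under every alternative run for them. Over 1359 values of these results under an alternative, 1290 kept direction and side of the threshold, 26 lost the call, 10 gained it and 33 changed sign. Leaving out 1 library changed the sign of 25 uncalled values, which then lay between -0.056 and 0.0875. The log2 differences concerned ranged, over the libraries left out, for the genotype difference without stimulus over Btk -0.133 to 0.0633, Cr2 -0.0243 to 0.145 and Blnk -0.0517 to 0.011. They ranged for the genotype difference with LPS over Lyn -0.0903 to 0.017. They ranged for the genotype difference with anti-IgM over Blk -0.0748 to 0.00483, Btk -0.056 to 0.108, Plcg2 -0.0484 to 0.144, Lyn -0.184 to 0.022 and Blnk -0.00795 to 0.042. They ranged for the LPS response of Trpm5-/- cells over Blnk -0.018 to 0.0162. They ranged for the LPS interaction over Lyn -0.0351 to 0.0929, Btk -0.169 to 0.0269 and Syk -0.0865 to 0.00474. They ranged for the anti-IgM interaction over Lyn -0.119 to 0.0875, Btk -0.0371 to 0.159 and Cd79a -0.0111 to 0.0991.

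Quantile normalization forces the same distribution on all libraries. It changed the sign of the genotype difference with anti-IgM of Btk (-0.0283) and Blnk (-0.0897), of the LPS response of Blnk (-0.52) and Cd81 (-0.0738) in wild-type cells, and of the anti-IgM response of Blk in Trpm5-/- cells (-0.0739). It also reversed LPS against anti-IgM for Cd79a (-0.29) and Blnk (-0.17), and the anti-IgM interaction of Cd79a (-0.25) and Lyn (0.000111). The cause was not tested. It made 2 calls among the 9 genes for the genotype difference with anti-IgM, against 0. It moved the share of higher calls to 61.5%, against 72.9%, for the genotype difference without stimulus, to 38.4%, against 50.5%, with LPS and to 51.8%, against 63.3%, for the mean of conditions.

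Of the 9 genes, the genotype difference with LPS called 2 in the model as described, 1 without the filter, 1 without the trend, 0 with only the compared libraries, and 1 to 2 with a library left out. Over all genes, the genotype difference without stimulus called 660, 361 without the trend, 51 with only the compared libraries and 159 to 274 with a library left out. With LPS it called 388, 21 with only the compared libraries and 158 to 206 with a library left out. With anti-IgM it called 413, 248 without the trend, 116 with only the compared libraries and 119 to 156 with a library left out. Fitting fewer libraries leaves fewer residual degrees of freedom. The LPS interaction called 11 genes, 4 without the trend, 5 with only the compared libraries and 3 to 23 with a library left out. The anti-IgM interaction called 3, 9 without the filter, 5 with only the compared libraries and 2 to 7 with a library left out.

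Deviations of same-numbered libraries correlated with r of -0.172 to 0.199 over 15 pairs of groups. Low r values cannot exclude a small shared effect, so whether the replicate numbers pair the samples is not known. With the replicate block the LPS interaction called 6 genes, and no call on the 9 genes was lost or gained. Depth is not known, and 2 libraries a group leave differences under about the intervals printed beside them undetected.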
